A study of Mus musculus with 11 samples.

Results

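The 10 transcripts described here encode products that textbooks assign to the cells around blood-forming cells in bone marrow, and were read in libraries of sorted haematopoietic stem cells. They are Cxcl12, Kitl and Lepr of the reticular stroma, Ibsp and Col1a1 of bone-forming cells, Cldn5, Kdr and Mmrn2 of endothelium, and the matrix genes Col18a1 and Fn1. They were picked by gene symbol with earlier results of these data known, among them the higher levels of several of the 10 in CD41+ cells. Each symbol stood on 1 Ensembl gene, so that 10 of 49585 entries of the count table are described. The difference between CD41+ and CD41- libraries is therefore given as a description with no test, while the response to platelet depletion was tested. The control libraries enter both. Picking transcripts that are lower in control CD41- than in control CD41+ cells can favour a rise with depletion in CD41- cells. It can favour a fall in CD41+ cells, so the depletion tests are not independent of the choice.

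All 11 libraries came from bone marrow of C57BL/6 mice, sorted as lineage-negative c-Kit+ Sca-1+ CD48- CD150+ cells and split by surface CD41, the platelet integrin chain encoded by Itga2b. Control mice had received rabbit serum, and the other mice were taken 24 h after depletion of their platelets. The groups were control CD41- (n = 3), control CD41+ (n = 2), depleted CD41- (n = 3) and depleted CD41+ (n = 3), and each library was a pool of cells from 3 mice with RNA of 1000 cells and 17 cycles of cDNA amplification. The labels call the libraries biological replicates and do not say whether a CD41- and a CD41+ library came from the same mice.

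Marrow stroma and endothelium form the niche that holds stem cells in place. CXCL12 is the chemokine that retains CXCR4-bearing stem cells in marrow, and membrane or soluble KIT ligand keeps them alive through the receptor KIT. Reticular cells that carry the leptin receptor are a main marrow source of both, while stem cells themselves are known as receivers of these signals. In a bulk library, fewer cells of a type and less RNA per cell cannot be told apart.

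Total counts per library ran from 0.974 M (depleted CD41+ replicate 1) to 9.95 M (depleted CD41- replicate 1), where M is 1000000 counts, and the other 9 libraries held 3.46 to 4.98 M. Levels are CPM, counts per 1000000 of the library total scaled by the TMM factor. A count of 3, used as the floor where a library or group has none, equalled 0.306 to 3.34 CPM depending on the library. This floor and the Poisson intervals below cover counting error only, since PCR copies without molecular identifiers are not independent molecules. The 12 stem cell genes used to check the label (such as Kit, Procr and Hlf) were all measured, and their summed level was 2907 to 3734 CPM in control CD41-, 1920 to 2525 in control CD41+, 1843 to 2486 in depleted CD41- and 1053 to 1972 CPM in depleted CD41+ libraries. Itga2b separated the CD41 fractions in both treatments, with 37.5 to 98.45 CPM in the 6 CD41- libraries and 169.8 to 424.6 CPM in the 5 CD41+ libraries.

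The promoters of 4 of these genes are shown because they stand for the 2 library patterns described below. Cxcl12 and Lepr went up and down in the same libraries, while Cldn5 and Col18a1 followed the CD41 fraction. Each sequence is the 250 bases before a RefSeq start on GRCm38.p6, written 5′ to 3′ on the gene's strand, at chr6:117168285-117168534 (plus) for Cxcl12, chr4:101717157-101717406 (plus) for the first start of Lepr, chr16:18776597-18776846 (plus) for Cldn5 and chr10:77166531-77166780 (minus) for the first start of Col18a1. Capitals mark matches on either strand to the motifs named in the next paragraph.
Cxcl12: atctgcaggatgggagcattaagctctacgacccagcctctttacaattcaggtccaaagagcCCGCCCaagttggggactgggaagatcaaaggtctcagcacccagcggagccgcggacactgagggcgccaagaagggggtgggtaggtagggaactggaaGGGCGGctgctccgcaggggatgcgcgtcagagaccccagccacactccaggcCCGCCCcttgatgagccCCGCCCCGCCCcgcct
Lepr: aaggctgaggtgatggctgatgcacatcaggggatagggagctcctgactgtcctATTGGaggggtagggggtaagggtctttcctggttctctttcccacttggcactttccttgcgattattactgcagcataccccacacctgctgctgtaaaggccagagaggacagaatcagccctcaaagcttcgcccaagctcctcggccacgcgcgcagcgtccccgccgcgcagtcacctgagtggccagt
Cldn5: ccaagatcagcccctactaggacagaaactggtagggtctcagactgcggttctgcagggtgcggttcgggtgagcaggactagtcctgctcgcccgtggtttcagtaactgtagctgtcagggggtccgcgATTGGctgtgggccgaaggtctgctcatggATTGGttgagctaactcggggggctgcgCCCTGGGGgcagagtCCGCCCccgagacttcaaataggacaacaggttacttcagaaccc
Col18a1: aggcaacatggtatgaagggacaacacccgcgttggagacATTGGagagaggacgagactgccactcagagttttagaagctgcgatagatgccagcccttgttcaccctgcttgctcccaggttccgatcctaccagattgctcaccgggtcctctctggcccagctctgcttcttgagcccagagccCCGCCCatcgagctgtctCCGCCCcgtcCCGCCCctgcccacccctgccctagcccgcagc

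The motifs searched on both strands were general promoter elements and short cores of factors known from blood and stroma. The general elements were TATAAA for the TATA box, GGGCGG for the box bound by SP1, called the GC box here, and CCAAT for the box of that name. The cores were CCCNNGGG for EBF factors, TGTGGT for RUNX factors and AGATAA for GATA factors. Further cores were TGTTTAC for forkhead proteins, AACAAT for SOX proteins and CGGAAG for ETS proteins. Of 10 genes, 7 had an entry in the RefSeq promoter table (Cxcl12, Kitl, Ibsp, Cldn5, Col18a1, Lepr and Kdr). The Cxcl12 window held 5 GC boxes, of which those from 16 to 11 and from 11 to 6 bases before the start share 1 base, and the first Col18a1 window held 3. A GC box stood in 32.7% of all 32817 windows of the same length. Cldn5 had a match to CCCNNGGG from 60 to 53 bases before the start, a core found in 11.8% of windows, and 2 CCAAT boxes, found in 33.8%. Lepr held 1 CCAAT box and none of the other 8 motifs in the window shown. Of the windows not shown, Ibsp and Kitl each had a TATA box (12.4% of windows), 28 to 23 and 25 to 20 bases before the start. Both of these RefSeq starts lie inside the first exon of the GENCODE M21 gene, so part of each window is annotated as exon there. The windows shown for Lepr and Col18a1 also reach into the GENCODE gene by a few bases, as does that of Kdr. The Lepr window ends at 101717406 and the gene starts at 101717404. On the minus strand, the Col18a1 window begins at 77166531 and the gene ends at 77166548. The share of G and C was 64.4% for Cxcl12, 58.4% for Lepr, 59.6% for Cldn5 and 62.0% for Col18a1 against a median of 52.4%, and 43.6% for Ibsp. A match is a run of letters and was not tested as a binding site.

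Per kb of exon, the mean level over the 11 libraries was highest for Cldn5 (16.1 CPM per kb) and Cxcl12 (14.4), followed by Ibsp (4.65), Mmrn2 (3.11), Col18a1 (2.42), Fn1 (1.96) and Kdr (1.11). Lepr (0.813), Kitl (0.4425) and Col1a1 (0.358 CPM per kb) came last. In all 9 pairs of neighbours in this order the gap was smaller than the larger of their SDs over the 11 libraries, such as 15.8 CPM per kb for Cxcl12 and 10.6 for Cldn5. In control CD41- libraries alone the order was headed by Cldn5, and Kitl and Ibsp had no count in any of the 3.

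**Figure D1:**
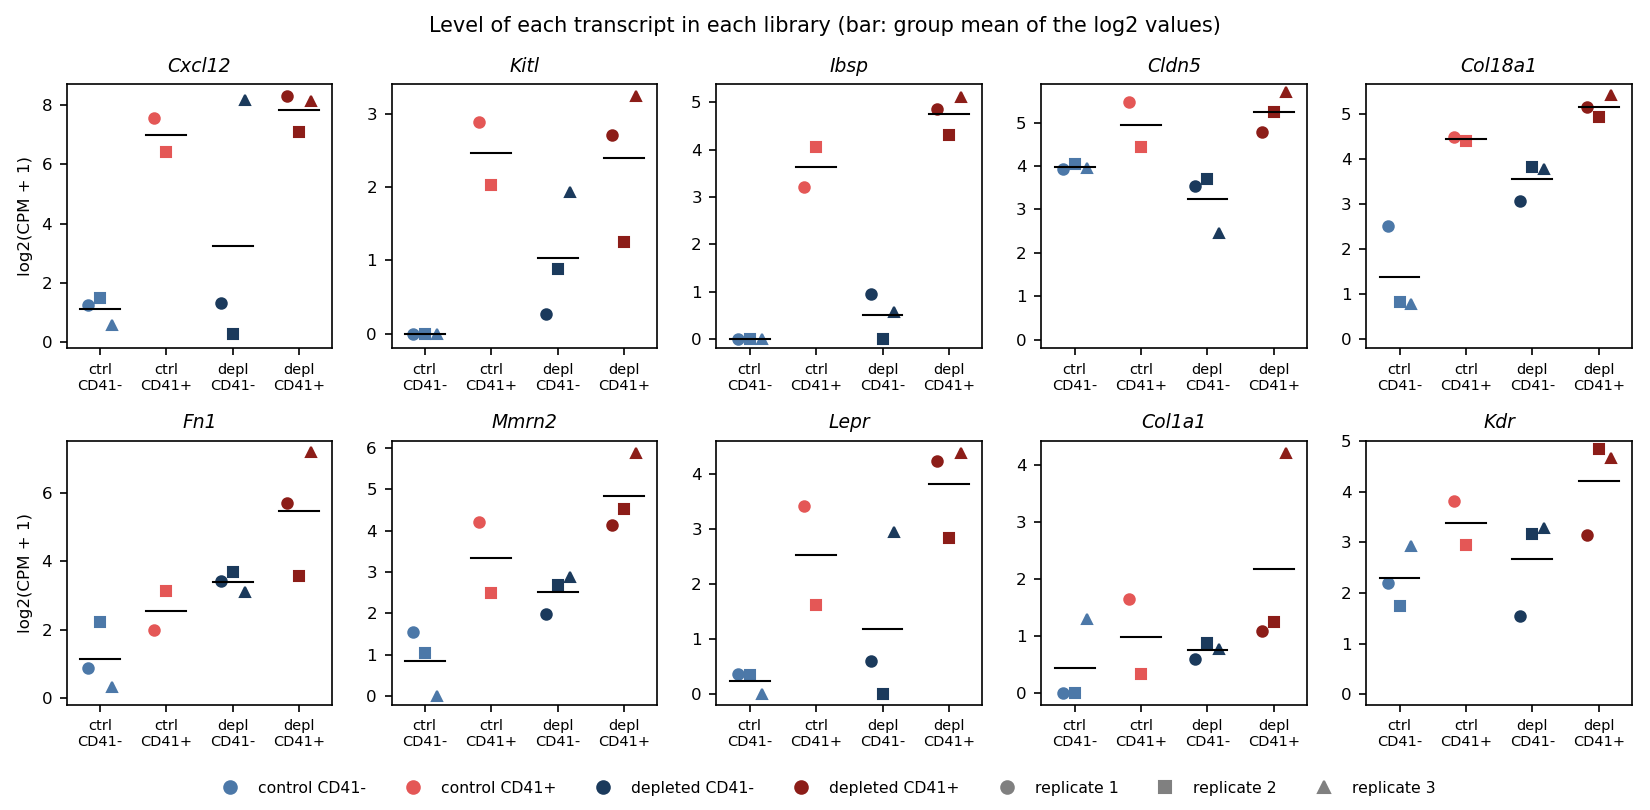
Level of each of the 10 transcripts in each of the 11 libraries as log2(CPM + 1), with 1 panel per gene, 1 column of points per group, marker shape for the replicate and a bar at the group mean of the log2 values. Depleted CD41- replicate 3 (dark blue triangle) stands with the CD41+ libraries for Cxcl12 and below all others for Cldn5.

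Cxcl12 (ENSMUSG00000061353, GRCm38 chromosome 6, 117168535 to 117181367, plus strand), the chemokine gene, was either nearly absent or among the abundant transcripts. Its levels were 1.38, 1.83 and 0.486 CPM in control CD41- replicates 1 to 3 and 189 and 83.9 CPM in control CD41+ replicates 1 and 2. In depleted mice they were 1.53, 0.209 and 284.5 CPM in CD41- and 311, 136 and 282 CPM in CD41+ replicates. Of the 6 CD41- libraries, 5 thus lay below 2 CPM, and the remaining one, depleted CD41- replicate 3, held the second highest level of all 11. That library had 327.5 times the mean of the other 2 of its group (0.869 CPM).

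Lepr (ENSMUSG00000057722, chromosome 4, 101717404 to 101815352, plus strand), which encodes the leptin receptor and marks niche-forming reticular cells, was likewise low in 5 of the 6 CD41- libraries. It stood at 0.275, 0.262 and 0 CPM in control CD41-, 9.62 and 2.06 in control CD41+, 0.509, 0 and 6.62 in depleted CD41-, and 17.8, 6.08 and 19.8 CPM in depleted CD41+ libraries. Depleted CD41- replicate 3 was again the CD41- library that overlapped the CD41+ range, at 26.0 times the mean of the other 2 of its group. The 28 counts behind it give an exact 95% Poisson interval of 4.40 to 9.57 CPM, above both the interval of replicate 1 (0.165 to 1.19 CPM, 5 counts) and the floor of 3 counts in replicate 2 (0.628 CPM).

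Kitl (ENSMUSG00000019966, chromosome 10, 100015630 to 100100416, plus strand) encodes KIT ligand and had only 95 counts in all. It was at 0 in the 3 control CD41- libraries and at 6.41 and 3.10 CPM in control CD41+. In depleted mice it reached 0.204, 0.838 and 2.84 CPM in CD41- and 5.56, 1.37 and 8.45 CPM in CD41+ libraries. Every library with at least 1 CPM was either CD41+ or depleted CD41- replicate 3, which overlapped the CD41+ range. Its 12 counts there give an interval of 1.47 to 4.96 CPM, which overlaps that of replicate 2 (0.228 to 2.15 CPM).

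**Figure D2:**
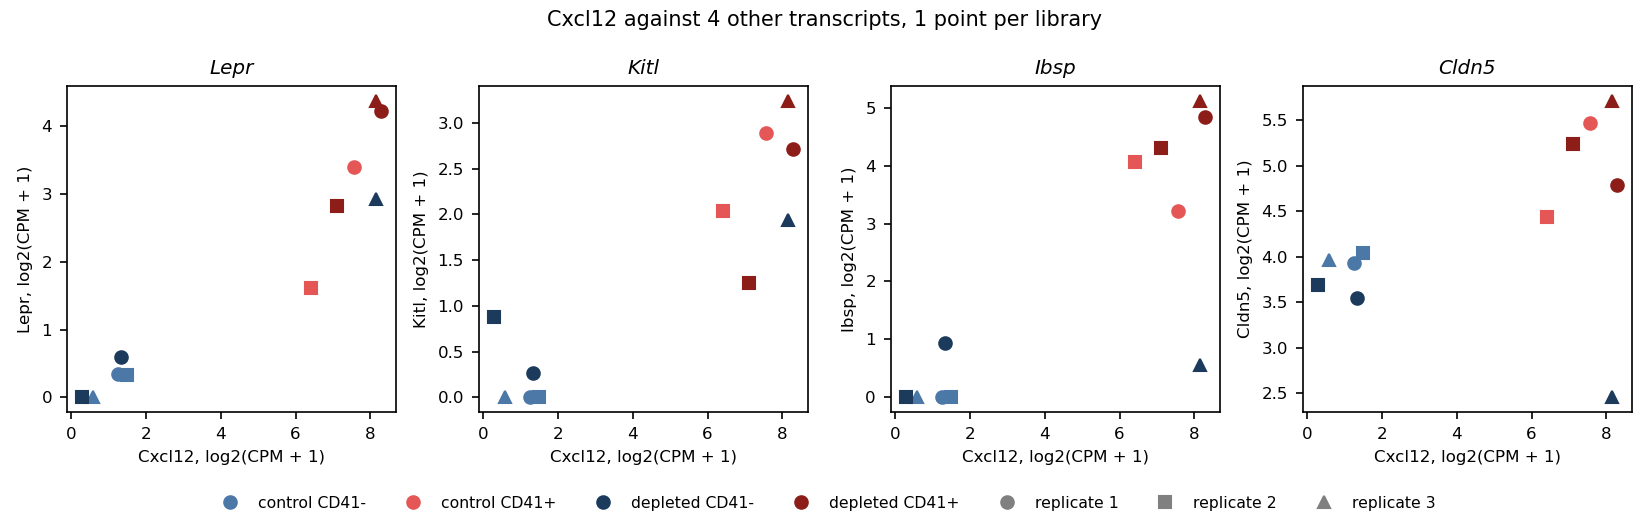
Cxcl12 (x axis) against Lepr, Kitl, Ibsp and Cldn5 (y axes), all as log2(CPM + 1), with 1 point per library, colour for the group and shape for the replicate. Depleted CD41- replicate 3 (dark blue triangle, Cxcl12 284.5 CPM) lies with the CD41+ libraries in the Lepr and Kitl panels and with the CD41- libraries in the Ibsp and Cldn5 panels.

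Ibsp, Cldn5 and Col18a1 behaved differently from these 3: each was higher in all 5 CD41+ than in all 6 CD41- libraries, depleted CD41- replicate 3 included. Ibsp (ENSMUSG00000029306, chromosome 5, 104299171 to 104311469, plus strand) encodes bone sialoprotein, a mineral-binding protein of bone. It had no count in control CD41- libraries, 8.28 and 15.7 CPM in control CD41+, 0.917, 0 and 0.473 CPM in depleted CD41- and 27.8, 18.8 and 33.8 CPM in depleted CD41+ libraries. The lowest CD41+ library (8.28 CPM) thus lay well above the highest CD41- library (0.917 CPM), and the 2 counts in depleted CD41- replicate 3 (interval 0.0573 to 1.71 CPM) did not set it apart from its group.

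Cldn5 (ENSMUSG00000041378, chromosome 16, 18776847 to 18778262, plus strand), the claudin of endothelial tight junctions, was the 1 transcript with a substantial level in every library. Control CD41- libraries held 14.3, 15.4 and 14.6 CPM, control CD41+ 43.3 and 20.6, depleted CD41- 10.7, 11.9 and 4.49, and depleted CD41+ 26.7, 36.85 and 51.6 CPM. The fractions did not overlap, and depleted CD41- replicate 3 had the lowest level of all 11 libraries, at 0.397 times the mean of the other 2 of its group.

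Col18a1 (ENSMUSG00000001435, chromosome 10, 77052178 to 77166548, minus strand) encodes the basement membrane collagen from which endostatin is cut. It went from 4.675, 0.785 and 0.730 CPM in control CD41- through 7.34, 13.2 and 12.8 CPM in depleted CD41- to 21.4 and 20.1 CPM in control CD41+ and 34.5, 29.4 and 41.95 CPM in depleted CD41+ libraries. The 4 groups did not overlap at any step of this order.

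Mmrn2 (ENSMUSG00000041445, chromosome 14, 34375465 to 34404287, plus strand), an endothelial matrix protein that binds CD93 and VEGF, was graded rather than on or off. It stood at 1.925, 1.05 and 0 CPM in control CD41-, 17.4 and 4.64 in control CD41+, 2.95, 5.445 and 6.39 in depleted CD41-, and 16.7, 21.95 and 57.7 CPM in depleted CD41+ libraries. CD41+ replicates lay above CD41- within each treatment, and control CD41+ replicate 2 lay within the depleted CD41- range.

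Kdr (ENSMUSG00000062960, chromosome 5, 75932827 to 75978458, minus strand), the gene of VEGF receptor 2, overlapped between the fractions in depleted mice and between treatments in both fractions. Its levels were 3.58, 2.36 and 6.57 CPM in control CD41-, 13.1 and 6.71 in control CD41+, 1.94, 7.96 and 8.75 in depleted CD41-, and 7.79, 27.6 and 24.2 CPM in depleted CD41+ libraries. Depleted CD41+ replicate 1, the shallowest library, fell among the CD41- values, on 7 counts, and the other 2 of its group were the highest of all 11.

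Fn1 and Col1a1 were set by few libraries. Fn1 (ENSMUSG00000026193, chromosome 1, 71585520 to 71653200, minus strand) encodes fibronectin, which cells bind through integrins. It stood at 0.825, 3.67 and 0.243 CPM in control CD41-, 2.94 and 7.74 in control CD41+, 9.68, 11.9 and 7.57 in depleted CD41-, and 51.2, 10.8 and 145.7 CPM in depleted CD41+ libraries. Depleted libraries were above control libraries in CD41+ cells and in CD41- cells, while the CD41 fractions overlapped within each treatment. Of its exon bases 292 are shared with the antisense gene Apol7d, which had 3 counts in all libraries together, and the sources used here do not say whether reads were counted by strand.

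Col1a1 (ENSMUSG00000001506, chromosome 11, 94936224 to 94953042, plus strand), the main collagen chain of bone, had 95 counts, of which 60 lay in depleted CD41+ replicate 3. That library stood at 17.5 CPM (interval 13.3 to 22.5), and the other 10 ranged from 0 to 2.14 CPM and overlapped across groups. Col1a1 did not pass the filter on low counts and was not tested.

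**Figure D3:**
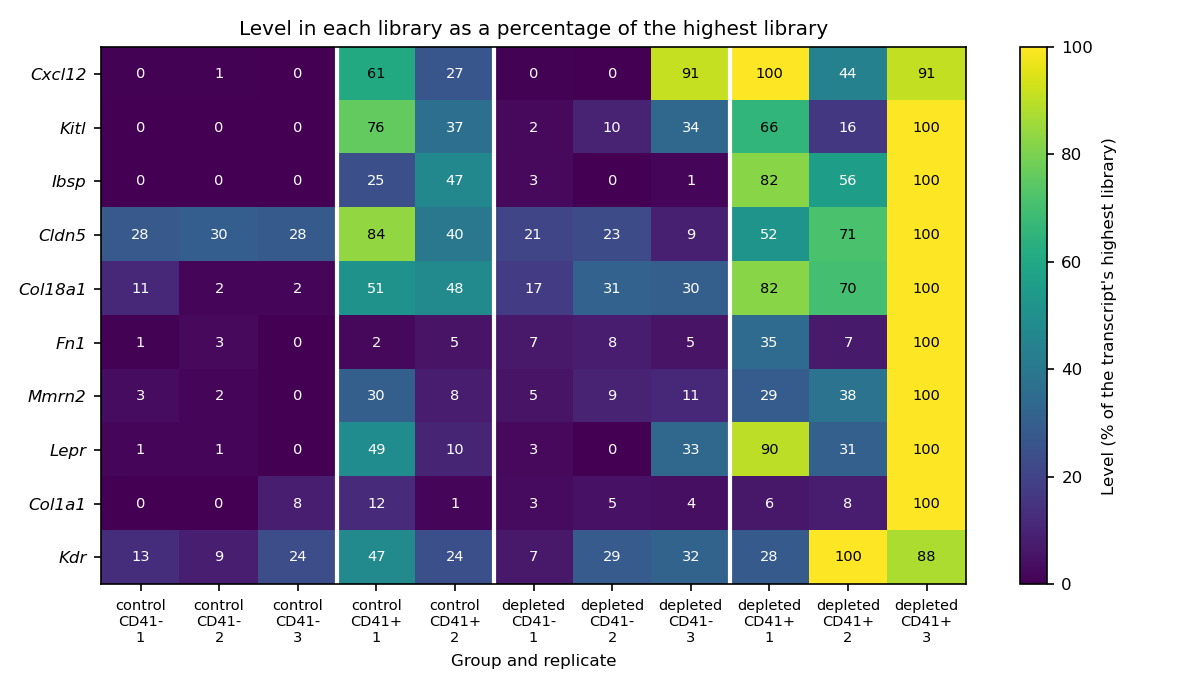
Level of each transcript (rows) in each library (columns) as a percentage of that transcript's highest library, printed in each cell and shown by colour, with white lines between groups. The highest level of 8 of the 10 transcripts lies in depleted CD41+ replicate 3, and depleted CD41- replicate 3 reaches 91% for Cxcl12 and 1% for Ibsp.

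Whether the 10 rise in the same libraries was read by counting, in each library, the transcripts above their own median over the 11. The count was 0, 0 and 1 in control CD41-, 9 and 4 in control CD41+, 1, 2 and 5 in depleted CD41-, and 9, 9 and 10 in depleted CD41+ libraries. The 5 in depleted CD41- replicate 3 were Cxcl12, Kitl, Mmrn2, Lepr and Kdr. The summed level was 24.1 to 26.95 CPM in control CD41- libraries, 165 and 314 CPM in control CD41+, 36.3, 52.4 and 335 CPM in depleted CD41-, and 500.5, 291 and 683 CPM in depleted CD41+.

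All CD41+ libraries were above all CD41- libraries for 8 of 10 transcripts in control mice (the exceptions were Fn1 and Col1a1), and 17.4% of the 13448 genes tested showed this. In depleted mice it held for 5 (Ibsp, Cldn5, Col18a1, Mmrn2 and Col1a1), of which 4 were tested and Col1a1 was not, against 8.35% of genes tested. Over both treatments together it held for 3 (Ibsp, Cldn5 and Col18a1), against 1.49%. Without depleted CD41- replicate 3, singled out after its values were seen, it held for 6, and the share of all genes was not counted. The transcripts were chosen on this difference, and nothing is read from these counts or shares.

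As a description, the fitted log2 difference of CD41+ minus CD41- cells in control mice was 6.78 ± 2.56 (SE) for Cxcl12, 4.85 ± 1.53 for Lepr, 3.47 ± 0.86 for Mmrn2 and 3.34 ± 0.59 for Col18a1. It was 1.76 ± 1.14 for Fn1, 1.24 ± 0.67 for Kdr and 1.11 ± 0.42 for Cldn5. For Kitl and Ibsp, with no count in control CD41- libraries, control CD41+ cells were higher by at least 18.3-fold and at least 46.3-fold, where the empty group is set to 3 counts in all. In depleted mice the same difference ranged from 1.36 ± 1.66 for Cxcl12, where depleted CD41- replicate 3 overlapped, to 5.58 ± 0.70 for Ibsp. Scaling by library size alone moved the median of all genes in the control comparison from -0.03 to -0.15, a shift smaller than any of these differences.

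The response to platelet depletion, which the study compared within each CD41 fraction, was tested with edgeR's quasi-likelihood test adjusted by Benjamini-Hochberg over 13448 genes. In a fit of the 2 CD41- groups alone, Cxcl12, Lepr, Kitl and Ibsp did not pass the filter on low counts. They entered the test through the CD41+ libraries, where they are high, so their adjusted p in CD41- cells are given as a description. In CD41- cells, 1 of 9 tested transcripts passed, with 3.19% of all genes passing (2.3% higher, 0.892% lower). It was Col18a1, which rose from 2.06 ± 2.26 to 11.1 ± 3.27 CPM (SD, n = 3 each), a log2 fold change of 2.42 ± 0.55 (adjusted p = 0.0287 by edgeR). All 3 depleted libraries were above all 3 control libraries. These control libraries also enter the CD41 difference known when Col18a1 was picked, so the call is not independent of that choice. The direction was the same in all 16 alternatives, with log2 fold changes of 2.01 to 3.81, and the threshold was passed in 11 of them. The highest value came without control CD41- replicate 1, the control library with the most Col18a1. The adjusted p was 0.0891 and 0.108 without control CD41- replicates 2 and 3, 0.0838 and 0.0991 without depleted CD41- replicates 2 and 3, and 0.0803 in a fit of these 2 groups alone.

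The 8 others did not pass in CD41- cells. Kitl (5.43 ± 1.80, adjusted p = 0.144 by edgeR) had counts in all 3 depleted and in no control library, which sets the fold at 4.99 or more with the empty group at 3 counts in all. That bound rested on depleted CD41- replicate 3, with 12 of the 18 counts, and without it the fold was at least 2.01 and the fitted value 4.13 (edgeR adjusted p = 0.402). Fn1 stood at 1.58 ± 1.83 CPM without and 9.73 ± 2.19 CPM with depletion (2.62 ± 1.01, edgeR adjusted p = 0.220), and Mmrn2 at 0.991 ± 0.964 and 4.93 ± 1.77 CPM (2.29 ± 0.83, edgeR adjusted p = 0.172). These 3 and Col18a1 did not overlap between depleted and control CD41- libraries, a pattern seen upward in 12.9% of genes tested. Cldn5 did not overlap in the other direction, which 12.1% of genes showed, with 14.8 ± 0.594 CPM before and 9.04 ± 3.99 CPM after depletion (-0.69 ± 0.40, edgeR adjusted p = 0.406).

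For Cxcl12 and Lepr, as for the bound of Kitl, the value in CD41- cells rested on depleted CD41- replicate 3. The fitted log2 fold change of Cxcl12 was 6.24 ± 2.48 (edgeR adjusted p = 0.264) and -0.22 without that library (edgeR adjusted p = 0.957). Lepr stood at 3.49 ± 1.52 (edgeR adjusted p = 0.263), and 0.73 without that library (edgeR adjusted p = 0.890). Ibsp (4.27 ± 1.51, edgeR adjusted p = 0.168) had 11 counts in the depleted group and none in the control group, which puts it at least 1.79-fold higher by the same rule. Of these 11 counts 9 lay in depleted CD41- replicate 1, and without that library the group mean (0.2365 CPM) was under the floor (0.259 CPM), so that no fold remained. Kdr stood at 0.53 ± 0.62 (edgeR adjusted p = 0.723). DESeq2 called Cxcl12 (adjusted p = 0.00652) and Mmrn2 (adjusted p = 0.0433) beside Col18a1 in CD41- cells, where it called 851 of 13431 genes. It gave Kitl no adjusted p. Since Cxcl12 entered through the CD41+ libraries, where it is high, its DESeq2 value is a description too. Without adjustment in edgeR, 7 of the 9 were under 0.05 in CD41- cells, as were 16.9% of all genes. Transcripts with few counts could pass the filter only through groups in which they are high, so this count supports no statement about the 10.

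In CD41+ cells 0 of 9 transcripts passed, where 0.104% of all genes passed by edgeR (0.0372% higher, 0.0669% lower), and 1 was under 0.05 without adjustment (12.2% of genes). That one was Fn1, at 5.34 ± 3.40 CPM (n = 2) in control mice and 69.2 ± 69.2 CPM (n = 3) after depletion, with a log2 fold change of 3.69 ± 1.07 (edgeR adjusted p = 0.215). Without depleted CD41+ replicate 3 it was 2.46 (edgeR adjusted p = 0.494). DESeq2 gave Fn1 an adjusted p of 0.0494 and called 266 of 13431 genes in this comparison. Ibsp, Col18a1 and Fn1 did not overlap between depleted and control CD41+ libraries, a pattern seen upward in 13.2% of genes, and 0 of the 10 lay wholly below, as 13.8% of genes did. Ibsp stood at 12.0 ± 5.27 against 26.8 ± 7.54 CPM (1.15 ± 0.63, edgeR adjusted p = 0.492) and Col18a1 at 20.75 ± 0.884 against 35.3 ± 6.31 CPM (0.76 ± 0.53, edgeR adjusted p = 0.589). The largest adjusted p was that of Kitl (0.08 ± 1.09, 0.986 by edgeR), at 4.75 ± 2.35 and 5.13 ± 3.56 CPM.

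**Figure D4:**
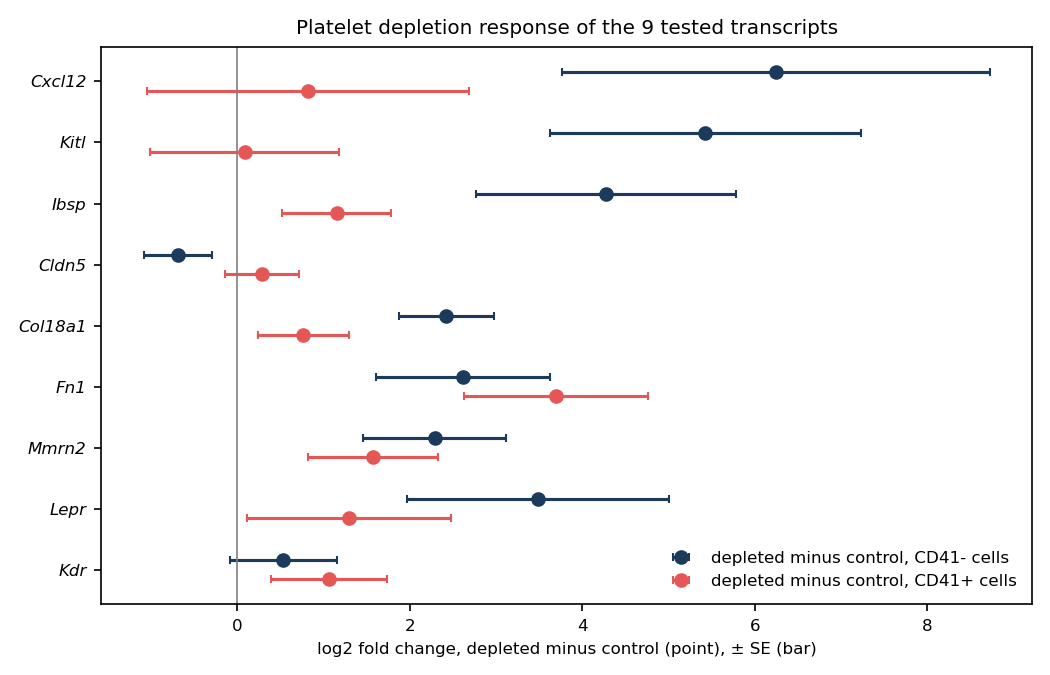
Log2 fold change of depleted against control mice (points) with its SE (bars) for the 9 tested transcripts, in CD41- (dark blue) and CD41+ cells (red). Col18a1 in CD41- cells (2.42 ± 0.55) is the 1 value that passed the adjusted threshold, and the widest bars belong to Cxcl12 in CD41- cells (SE 2.48).

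The difference of the 2 responses (CD41+ minus CD41-) passed for 0 of the 9 and for 0.0% of all genes by edgeR, with 825 genes and 2 of the 9 (Kitl and Col18a1) under 0.05 without adjustment and 35 genes, none of the 9 among them, called by DESeq2. It was -1.66 ± 0.75 for Col18a1 (edgeR adjusted p = 0.796), and so the call in CD41- cells alone is not shown to be a difference between the fractions. For Cxcl12 it was -5.42 ± 3.12 (edgeR adjusted p = 0.882) and 1.04 without depleted CD41- replicate 3.

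Between the transcripts, Pearson's r of log2(CPM + 1) over the 11 libraries was above 0 in 45 of 45 pairs, with a median of 0.697. These libraries share the CD41 difference on which the transcripts were chosen. After each group's mean was removed, r was above 0 in 35 of 45 pairs with a median of 0.197. The pair Cxcl12 and Lepr had the highest value both before (0.95) and after removal (0.89). Before removal Col18a1 and Mmrn2 came next at 0.92 (0.59 after), and after removal Kitl and Lepr did at 0.85 (0.915 before). Cxcl12 and Cldn5 had the lowest value after removal, -0.61, and Ibsp and Kdr stood at -0.55. Depleted CD41- replicate 3 enters each of the values for Cxcl12 as the point farthest from its group.

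Among 10810 genes that averaged 5 CPM or more, the 5 most like each abundant transcript over the 11 libraries were named by Pearson's r. Those most like Cxcl12 were Lepr (0.95), Gpx3 (0.93), Fabp4 (0.92), Adipoq (0.91) and Sparc (0.91), where Adipoq encodes the fat hormone adiponectin and Fabp4 a fatty acid carrier of fat and endothelium. Adipoq stood at 0, 0 and 27.2 CPM in depleted CD41- and at 7.79, 13.1 and 21.0 CPM in depleted CD41+ libraries. Fabp4 stood at 1.43, 2.93 and 59.1 CPM in depleted CD41- and at 65.6, 30.0 and 70.2 CPM in depleted CD41+ libraries. As with Cxcl12, depleted CD41- replicate 3 was within or above the CD41+ range of depleted mice for both. Those most like Lepr were Cxcl12, Depp1, Tm4sf1, Fabp4 and Cinp (0.94 to 0.95).

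**Figure D5:**
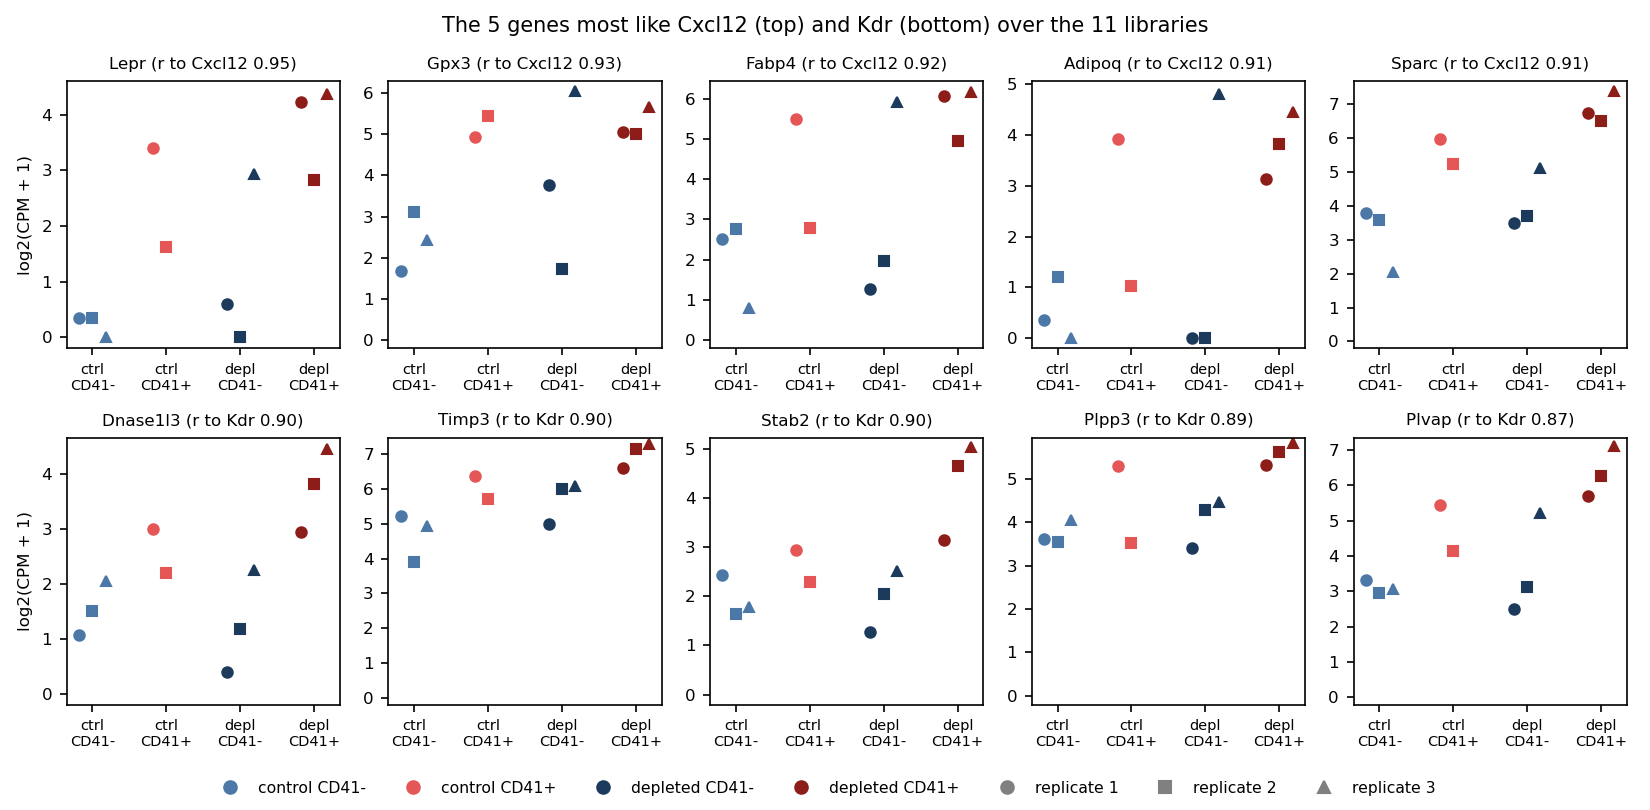
Level as log2(CPM + 1) of the 5 genes most like Cxcl12 (top) and Kdr (bottom) in each library, by group, with marker shape for the replicate. Depleted CD41- replicate 3 (dark blue triangle) is far above its group for Lepr, Gpx3, Fabp4 and Adipoq, and for Plvap at 36.2 CPM against 4.69 and 7.75.

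The genes most like Kdr were Dnase1l3, Timp3, Stab2, Plpp3 and Plvap (0.87 to 0.90), of which Stab2 and Plvap are known from sinusoidal and fenestrated endothelium. Mmrn2 was closest to Atp5g1, Tspan7, Sparc, Ndufs6 and Ergic2 (0.95 to 0.97). Sparc, a collagen-binding matrix protein, thus stood on the lists of both Cxcl12 and Mmrn2, with 3.16 to 12.7 CPM in control CD41-, 61.5 and 36.6 in control CD41+, 10.3, 11.9 and 33.6 in depleted CD41-, and 105, 90.0 and 167 CPM in depleted CD41+ libraries. Cldn5 was closest to Gdf3, Aplnr, Bola2, Dapk2 and Gp1bb (0.88 to 0.90), with Gp1bb a platelet receptor subunit. The genes most like Ibsp (Eif3g, Adk, Cct7, Tuba8 and Cavin2), Col18a1 (Nr1i3, Stoml2, Cops6, Chaf1b and Cndp2) and Fn1 (Mrps28, Scfd1, Sucla2, Slc30a7 and Rnaseh2b) hold no further member of the lists below.

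Depleted CD41- replicate 3 was at least 10-fold above the mean of the other 2 libraries of its group, at 5 CPM or more, for 23 of 13448 genes (0.171%). Among these were Cxcl12 and Lepr, and from the lists below Adipoq, Fabp4, Flt1 and Igfbp5. Flt1, VEGF receptor 1, stood at 0.4075, 0 and 11.35 CPM in depleted CD41- libraries, and Igfbp5, a growth factor binding protein, at 0, 0 and 22.9 CPM. Itga2b was at 44.7 CPM in that library and at 44.4 and 37.5 CPM in the other 2, so the CD41 transcript did not set it apart. Its summed macrophage markers (485.7 CPM) were the highest of the 6 CD41- libraries and its neutrophil markers (22700 CPM) lay between those of the other 2.

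Other genes of the same cell types were read from lists written with earlier results known. Of 21 further reticular genes, 14 were tested and 0 were called in either depletion comparison by edgeR, with a median log2 fold change of -0.35 in CD41- and 0.14 in CD41+ cells. Their most abundant members were Angpt1, which stem cells are known to make too, Igfbp4, Vcam1 and Gas6. Vcam1, an adhesion molecule that is also on the macrophage list, stood at 89.9, 25.9 and 1.46 CPM in control CD41-, 165.7 and 137.5 in control CD41+, 65.0, 28.5 and 140.5 in depleted CD41-, and 220.2, 162 and 309 CPM in depleted CD41+ libraries. Control and depleted libraries overlapped in both fractions, and it passed in neither comparison (edgeR adjusted p = 0.688 in CD41- and 0.877 in CD41+ cells). The reticular regulators Foxc1 and Ebf3 were at 0 in 9 of the 11 libraries each. Of 18 further osteoblast genes, 8 were tested and 0 called (medians 1.76 and 1.39 in the same order), with Runx2, Spp1, Col1a2 and Alpl the most abundant. The osteoblast genes Sp7, Sost and Mepe were at 0 in every library and Bglap, osteocalcin, had at most 0.258 CPM. Others of the list were present, such as Mmp13 with 0, 0 and 0.473 CPM in depleted CD41- and 3.34, 7.06 and 7.28 CPM in depleted CD41+ libraries. Of the 8 tested, 7 had a positive CD41 difference in control mice and 5 in depleted mice, with 0 called.

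Of 25 further endothelial genes, 23 were tested and 0 were called in either depletion comparison, with medians of -0.10 in CD41- and 0.58 in CD41+ cells. The most abundant, Eng, Esam, Egfl7 and Tie1, are known in stem cells too, and Eng stood at 195 to 516 CPM, highest in control CD41- replicate 3. Cdh5, the cadherin of endothelial junctions, stood at 1.1, 0.785 and 0 CPM in control CD41-, 3.74 and 0.258 in control CD41+, 0.815, 2.51 and 1.42 in depleted CD41-, and 3.34, 5.29 and 16.6 CPM in depleted CD41+ libraries. It overlapped between treatments in both fractions and did not pass (edgeR adjusted p = 0.605 in CD41- and 0.479 in CD41+ cells). Of the 23 endothelial genes tested, 11 had a positive CD41 difference in control mice (median log2 difference -0.03) and 15 in depleted mice (median 1.12). Erg was called lower in CD41+ cells of control mice (-1.86 ± 0.38, edgeR adjusted p = 0.0202), and 0 were called in depleted mice. Of 29 further matrix genes, 21 were tested, with medians of 0.55 in CD41- and 1.09 in CD41+ cells. Bgn (biglycan) fell by 1.11 ± 0.27 on the log2 scale in CD41- cells (edgeR adjusted p = 0.0406) and no matrix gene was called for depletion in CD41+ cells. Mmrn1, Emilin1 and Sparc were the other abundant members. Of the 21, 12 had a positive CD41 difference in control mice (median 0.03) and 13 in depleted mice (median 0.93). In control mice Col4a2, a basement membrane collagen, was called lower in CD41+ cells (-2.16 ± 0.50, edgeR adjusted p = 0.0371). Sparc was called higher there (2.46 ± 0.57, edgeR adjusted p = 0.0452), and 0 were called in depleted mice. Of 12 mural genes 6 were tested and 0 called (medians -0.32 in CD41- and 0.27 in CD41+ cells), led by Kcnj8, Abcc9, Mcam and Rgs5, with a summed level of 3.85 to 15.4 CPM in CD41- and 14.45 to 65.55 CPM in CD41+ libraries and Cspg4 at 0 throughout.

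Receptors and partners of the 10 products were read from the same libraries. Of 23 genes 18 were tested and 0 were called in either depletion comparison by edgeR, with medians of -0.23 in CD41- and 0.16 in CD41+ cells. Cxcr4, the receptor of CXCL12, stood at 6.81 to 22.1 CPM in control CD41-, 10.4 and 14.2 in control CD41+, 6.62 to 8.15 in depleted CD41- and 5.29 to 11.1 CPM in depleted CD41+ libraries. The fractions overlapped within each treatment, and the treatments within each fraction. Kit, the receptor of KIT ligand, had a mean of 442.7 CPM over the 11 libraries and Itgb1 and Itga5, which join as the fibronectin receptor, means of 224.5 and 30.1 CPM. Cd44, an adhesion receptor, had a mean of 229 CPM, and Lep, the ligand of the leptin receptor, had reads in 1 library.

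Markers of blood cells outside the sort gate were read from the same libraries. Of the neutrophil, macrophage and lymphoid lists 0 genes were called between the CD41 fractions by edgeR in either treatment. Erythroid Aqp1 and Epor were called higher in CD41+ cells in control mice. So were 7 megakaryocyte genes in control and 3 in depleted mice, Itga2b among both. Of all 13448 genes, 212 were called higher in control and 9 in depleted mice. In control mice the summed neutrophil, macrophage and erythroid levels were higher in all CD41+ than in all CD41- libraries, while the lymphoid and megakaryocyte sums overlapped. In depleted mice the sums of each of these lists overlapped between the fractions. All 14 neutrophil genes tested had a positive CD41 difference in control mice and 13 in depleted mice, and their summed level was 9229 to 15940 CPM in control CD41-, 25830 to 90170 in control CD41+, 4656 to 39160 in depleted CD41- and 16180 to 54300 CPM in depleted CD41+ libraries. Macrophage genes summed to 96.1 to 358 CPM, 505 to 601, 131 to 486 and 452.5 to 729 CPM in the same order, and 12 of 14 were tested. Erythroid genes summed to 2959 to 4843, 5282 to 6523, 2958 to 4585 and 4088 to 5427 CPM (13 of 13 tested), megakaryocyte genes to 2116 to 3023, 2640 to 3458, 1382 to 1951 and 1625 to 2206 CPM (18 of 19 tested, Gp6 at 0 throughout) and lymphoid genes to 107 to 186, 126 to 334, 57.4 to 165 and 106 to 195 CPM (9 of 12 tested). In CD41- cells Gp5, Nfe2 and Pf4 of the megakaryocyte list and Hlf of the stem cell list were lower after depletion by edgeR, Hlf by -0.91 ± 0.22 on the log2 scale (edgeR adjusted p = 0.0367). A list of 11 genes of lineage markers and CD48, which also holds the pan-leukocyte gene Ptprc, summed to 312 to 556 CPM over the 11 libraries, with 9 of them tested and 0 called in a depletion comparison. The part of these cells in the levels of the 10 transcripts was not tested.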

How the data were processed

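Gene counts of 11 poly-dT-primed cDNA libraries were used as deposited by the authors. Per the submitters' processing notes, cutadapt, STAR and HTSeq 0.6.1p1 were used with GRCm38 (mm10). The sources used here give neither the strand setting nor the annotation release of the counting. Symbols, exon lengths and coordinates came from GENCODE M21 on GRCm38 (49326 of 49585 entries matched, 259 not), and promoter windows from RefSeq on GRCm38.p6.

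Libraries were grouped by their labels. The filter filterByExpr (counts of at least 10, total of at least 15) kept 13448 genes, 9 of the 10 transcripts among them, and 99.7% of counts. They were scaled by TMM and fitted in 1 model over the 4 groups with edgeR 4.0.16 (quasi-likelihood, R 4.3.3). Calls were made at a Benjamini-Hochberg value of 0.05, and SEs were derived from F. The procedure was tested on simulated data. Each library was left out in turn, and other settings were RLE factors, scaling by library size, DESeq2 1.42.0, no filter, fits of the compared groups, and title numbers as pairs.

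The 10 transcripts and all lists were chosen with earlier results of these data known. Named genes were the 10, the 5 others with the highest r to each of the 8 with a mean of at least 5 CPM, the 4 most abundant of each list and list genes called in a depletion comparison. The 10-fold rule for depleted CD41- replicate 3, and the naming of Foxc1, Ebf3, Sp7, Sost, Mepe, Bglap, Mmp13, Cdh5, Erg, Col4a2, Lep, Gp6 and Cspg4, were added after values were seen. From the stem cell and blood cell lists only examples and sums are given. Figures were drawn with matplotlib 3.10.9.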

Additional observations from a re-analysis of the deposited data

How the results depend on the processing

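The number of genes called in either direction was 14 for depletion in CD41+ cells, 429 for depletion in CD41- cells, 0 for the difference of the responses, 352 for CD41 in control mice and 26 for CD41 in depleted mice. In this order it was 317, 862, 178, 1142 and 387 with no filter on low counts, and 266, 851, 35, 994 and 204 with DESeq2. A fit on the compared groups alone gave 0 for depletion in CD41+ cells and 143 for CD41 in control mice. RLE factors and library size alone kept the 5 counts within 1.5 times of these. Leaving out 1 library at a time gave 0 to 57, 169 to 560, 0 to 0, 48 to 545 and 5 to 32, and 3 to 6 transcripts whose CD41 fractions did not overlap, where 6 came without depleted CD41- replicate 3. The share of all genes without such overlap was not counted with a library left out.

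Without the filter, adjusted p in edgeR passed the threshold in CD41- cells for Cxcl12 (1.89e-75), Fn1 (1.55e-06), Col18a1 (3.76e-05), Mmrn2 (0.0038), Lepr (0.00986) and Kitl (0.0189), where 862 of 25098 genes passed. The high Cxcl12 level in depleted CD41- cells was that of replicate 3 alone. By the same fit Fn1 (1.72e-10) passed in CD41+ cells, where 317 genes did. Cxcl12 (2.83e-35) passed in the difference of the responses, where 178 genes did. Why these passed without the filter was not tested. Log2 fold changes, none of them past the threshold, turned sign for depletion in CD41+ cells for Kitl (-0.65 to 0.71 over the libraries left out, with -0.35 when control CD41+ replicate 2 was out and -0.65 when depleted CD41+ replicate 3 was) and Cldn5 (-0.15 to 0.92, lowest when control CD41+ replicate 2 was out), and for depletion in CD41- cells for Cxcl12 (-0.22 to 6.83, lowest when depleted CD41- replicate 3 was out). For the difference of the responses they turned for Cxcl12 (-6.01 to 1.04) and Lepr (-2.92 to 0.56), both highest when depleted CD41- replicate 3 was out, for Fn1 (-0.46 to 1.93, with -0.46 when control CD41- replicate 2 and -0.16 when depleted CD41+ replicate 3 was out) and for Mmrn2 (-1.60 to 0.50, highest when control CD41+ replicate 1 was out).

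The labels do not state that consecutive title numbers pair CD41- with CD41+ libraries. The correlation of deviations from group means was 0.0801 and 0.0977 in the 2 control pairs and 0.207 to 0.343 in the 3 depleted pairs. A replicate block on these pairs gave 2 calls for the difference of the responses, 394 for CD41 in control mice and 158 for CD41 in depleted mice, and it could not be fitted for depletion within a fraction, because each pair lies in 1 treatment. Depth limits Kitl and Col1a1 most, with 95 counts each over the 11 libraries, and depleted CD41+ replicate 1 (0.974 M counts).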
